A study of Mus musculus with 12 samples.

Results

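Collagens and the matrix genes of fibroblasts were followed in mouse hearts 8 hours after myocardial infarction (MI) or sham surgery, in the wake and in the sleep period. The genes were taken by name from the annotation of the array: every gene whose single symbol is that of a collagen chain, and 20 further genes of matrix proteins, matrix enzymes and fibroblast markers. This gave 55 of the 12393 genes with a single-symbol probe set, of which 36 were collagens and 19 were named genes. The remaining named gene, Fbn1, is annotated to no single-symbol probe set. Where a gene had several probe sets, as 30 of the 55 did, the one with the highest mean over 12 arrays was used. A level filter kept 37 of the 55 (18 of 36 collagens and all 19 others), and these are the genes tested, among 8101 tested in all. The 18 collagens below the filter, such as Col2a1, Col10a1 and Col11a1 of cartilage, had mean signals of 1.52 to 16.7 and no single signal above 27.9, and no change was read from them.

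The 12 C57Bl/6 mice formed 4 groups of 3, each heart on 1 single-colour array. Wake MI mice had the left anterior descending coronary artery tied off at ZT13 to ZT15 (zeitgeber time, hours from lights on), wake sham mice had sham surgery at the same time, and both were collected at ZT23. Sleep MI and sleep sham mice had the same procedures at ZT1 to ZT3 and were collected at ZT11. Time of surgery and time of collection moved together, so that a wake and sleep difference belongs to both. The labels call the MI samples infarcted myocardium and do not say which piece of a sham heart was taken. The biological replicates are 3 mice a group, all of 1 strain with no transgene named.

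The heart's matrix is laid down mainly by fibroblasts. Fibrillar collagens form the tension-bearing fibres between muscle bundles, small leucine-rich proteoglycans coat these fibres and set their spacing, and fibulins and elastin form elastic fibres. Type IV collagen forms the sheet-like basement membrane around each muscle cell and capillary, and other cells than fibroblasts make it too. After an infarct the early phase is one of cell death and inflammation, and the collagen scar is built in the days that follow. The hearts here were taken in that early phase.

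Signals are MAS5 intensities on a linear scale, brought to a common level on each array, with a median of 32.7 to 34.7 per array, and the number of arrays limits the precision. Markers of heart muscle were high in all hearts, with summed signals of 103827 to 122717 for 16 cardiomyocyte markers in wake MI hearts, 96598 to 107766 in wake sham, 111014 to 124657 in sleep MI and 91424 to 124316 in sleep sham hearts. Markers of atrial muscle differed between arrays. The summed signal of 7 atrial markers was 1209 to 1652 in wake MI hearts against 1963 to 15343 in wake sham hearts, and 2049 to 3168 in sleep MI hearts against 1928 to 4984 in sleep sham hearts. Myl7, the atrial myosin light chain, was at or near 0 in wake MI hearts (3.07, 0.727 and 1.21), against 79.3, 268 and 3476 in wake sham hearts. It read 550.1, 121 and 158 in sleep MI hearts, against 26.3, 11.5 and 256 in sleep sham hearts. Wake sham replicate 3 thus stands apart, and the main counts are also given without it. The 3' to 5' ratio of beta-actin, a sign of RNA quality, was 2.33, 2.17 and 3.31 in wake MI hearts against 1.81, 1.78 and 1.77 in wake sham hearts, and 2.19, 2.09 and 2.92 in sleep MI hearts against 2.49, 2.11 and 1.94 in sleep sham hearts. It was higher in each wake MI array than in each wake sham array.

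In wake hearts 11 of the 37 genes passed the test after MI, 2 higher and 9 lower, where percent called over all genes was 18.5 (7.79 higher and 10.7 lower). The genes that rose were Col4a1 and Col4a2, both of the basement membrane. Those that fell were Cdh11, Inmt, Fmod, Lum, Prelp, Col1a1, Fbln1, Tcf21 and Col5a3, which are fibroblast markers, proteoglycans of collagen fibres, fibrillar collagens and a fibulin. In bulk tissue, fewer cells of a type and less RNA per cell cannot be told apart. In sleep hearts 1 of 37 passed, Col4a1, higher in MI, with 2.65% called over all genes (1.68% higher and 0.975% lower). At an unadjusted p below 0.05 there were 7 of 37 in sleep hearts (4 higher, 3 lower), against 17.1% of all genes (6.8% higher, 10.3% lower), and 17 of 37 in wake hearts (2 higher, 15 lower), against 33% of all genes (12.7% higher, 20.3% lower). Over both times 11 of 37 passed (2 higher, 9 lower), with 22.1% called over all genes (8.49% higher and 13.6% lower), and 12 had an unadjusted p below 0.05 (2 higher, 10 lower), against 36.4% of all genes (13% higher and 23.3% lower). A gene was called at a limma adjusted p below 0.05, and log2 changes are on log2(signal + 16), a scale that understates changes of dim genes.

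The median log2 change of the 37 was -0.32 in wake hearts, where the median of all 8101 genes was -0.06, and 29 of the 37 (78.4%) lay below 0, against 57.6% of all genes. Wake MI and wake sham hearts did not overlap for 2 higher and 11 lower genes, against 35.1% of all genes (13.6% higher, 21.5% lower). In sleep hearts the median of the 37 was 0.10, where that of all genes was -0.05. Sleep MI and sleep sham hearts did not overlap for 4 higher genes (Col4a1, Col4a2, Eln and Fn1) and 2 lower ones (Cdh11 and Fbln1), against 23.5% of all genes (8.2% higher, 15.3% lower). Without wake sham replicate 3, 6 of the 37 were called in wake hearts, 1 higher and 5 lower, and Col4a2, Fmod, Tcf21, Lum and Col5a3 were no longer among them. Of all 8101 genes 426 were then higher and 419 lower. Without that array 11 of the 37 had an unadjusted p below 0.05 in wake hearts (2 higher, 9 lower). Of all 8101 genes, 867 were then higher and 1315 lower at that threshold. With 3 wake MI against 2 wake sham hearts, 2 higher and 11 lower genes of the 37 did not overlap. Fewer arrays separate more easily and the share over all genes was not counted, so that count cannot be set against the one above. Over both times 8 of the 37 were then called, 3 higher (Col4a1, Col4a2 and Fn1) and 5 lower. In sleep hearts 3 were, Col4a1 and Fn1 higher and Cdh11 lower, since all groups share 1 estimate of the spread. Of all 8101 genes, 575 were then higher and 766 lower over both times, and 118 higher and 49 lower in sleep hearts. When the fit included the 3' to 5' ratio, 3 were called in wake hearts, namely Cdh11, Fbln1 and Col4a1. The count over all genes in that fit is not given. In wake hearts the ratio was higher in each MI array than in each sham array, so its part cannot be told apart from that of MI. Leaving out wake sham replicate 3 did not remove the atrial difference. The 5 atrial markers past the level filter then still had a median log2 change of -1.86 in wake hearts, with 2 called lower. The part of atrial tissue and of RNA quality in these falls was not tested.

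**Figure D1:**
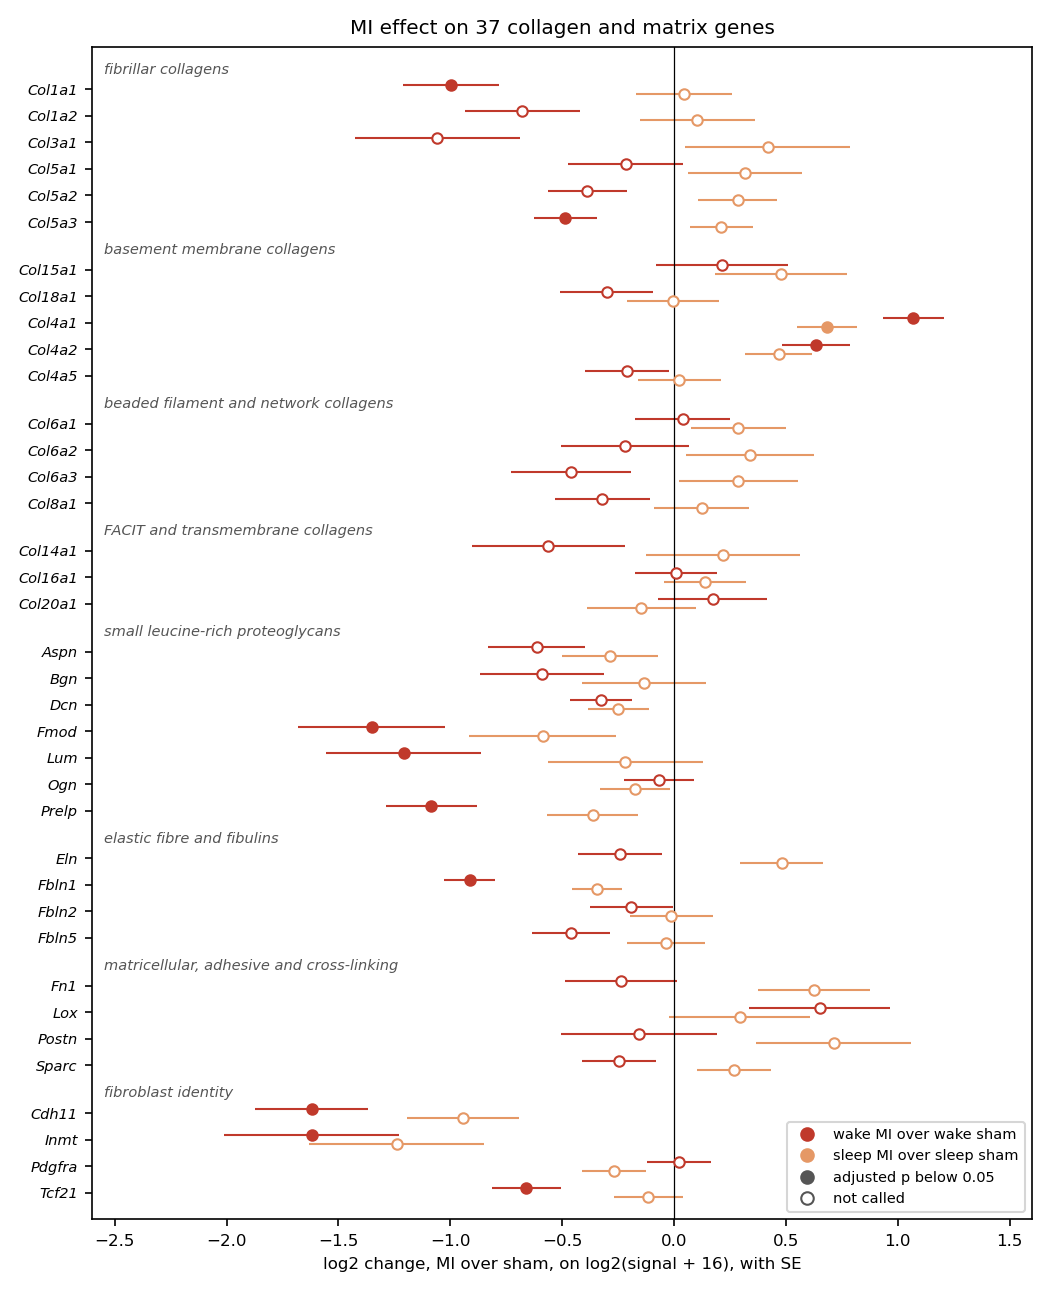
Log2 change (x axis, on log2(signal + 16)) of MI over sham for the 37 tested genes, grouped by role down the page, with wake hearts in red and sleep hearts in orange. Points are limma estimates with their SE (3 hearts a group), and filled points have an adjusted p below 0.05: 11 in wake hearts and 1 in sleep hearts.

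The pair that rose, Col4a1 and Col4a2, lies head to head. Their start sites are 21 bases apart on opposite strands of chromosome 8, and each lies inside the other gene. The 300-base windows around each start (250 bases before and 50 after, RefSeq, GRCm38.p6) share 78 bases. Both windows are shown because the genes moved together, with motifs on either strand in capitals (the CCAAT box, letters CCAAT, and the GC box, letters GGGCGG). The Col4a1 window is chr8:11312777-11313076 on the minus strand and the Col4a2 window chr8:11312555-11312854 on the plus strand, each printed 5′ to 3′.
Col4a1: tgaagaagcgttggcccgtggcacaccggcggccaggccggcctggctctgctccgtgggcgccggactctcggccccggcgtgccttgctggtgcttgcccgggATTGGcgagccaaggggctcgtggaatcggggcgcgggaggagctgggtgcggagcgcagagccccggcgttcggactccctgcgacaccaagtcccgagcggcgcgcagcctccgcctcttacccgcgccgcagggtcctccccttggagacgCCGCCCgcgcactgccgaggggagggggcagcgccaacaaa
Col4a2: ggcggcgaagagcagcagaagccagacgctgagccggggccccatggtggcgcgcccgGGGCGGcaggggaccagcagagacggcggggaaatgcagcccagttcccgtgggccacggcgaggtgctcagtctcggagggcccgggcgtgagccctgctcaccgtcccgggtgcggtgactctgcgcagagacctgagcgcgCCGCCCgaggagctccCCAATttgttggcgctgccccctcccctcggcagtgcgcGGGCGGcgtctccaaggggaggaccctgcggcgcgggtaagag
The Col4a1 window held a CCAAT box starting 145 bases before the start site and a GC box 9 bases after it. The Col4a2 window held a CCAAT box 32 bases before its start and GC boxes at 192 and 48 before and 7 after it. The GC box after the Col4a1 start and the one after the Col4a2 start are the same bases, in the shared stretch. Within each window no motifs overlapped. GC content was 74.0% in the Col4a1 window and 73.7% in the Col4a2 window, where the median over all windows was 53.0%.

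The windows of Inmt and Prelp, which are among the genes that fell, are shown as examples with the same marking. The TATA box (letters TATAAA) is in capitals too. The Inmt window is chr6:55174941-55175240 and the Prelp window chr1:133921352-133921651, both on the minus strand.
Inmt: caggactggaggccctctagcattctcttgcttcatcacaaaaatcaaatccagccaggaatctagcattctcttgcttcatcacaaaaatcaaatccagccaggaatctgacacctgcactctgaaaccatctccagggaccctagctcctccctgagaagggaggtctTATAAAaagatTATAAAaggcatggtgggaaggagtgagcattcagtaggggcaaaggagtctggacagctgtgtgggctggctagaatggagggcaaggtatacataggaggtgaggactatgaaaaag
Prelp: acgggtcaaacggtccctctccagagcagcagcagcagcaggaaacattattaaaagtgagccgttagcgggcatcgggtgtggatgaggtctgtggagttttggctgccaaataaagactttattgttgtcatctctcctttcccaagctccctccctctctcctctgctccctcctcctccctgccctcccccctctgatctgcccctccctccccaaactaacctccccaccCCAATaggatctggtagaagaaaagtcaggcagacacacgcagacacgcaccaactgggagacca
Inmt held TATA boxes 80 and 69 bases before its start, and Prelp a CCAAT box 15 bases before its start. These windows do not stand for all genes that fell. The Col5a3 window held 3 GC boxes and a CCAAT box, with a GC content of 63.3%. A Fbln1 window held 2 GC boxes, with a GC content of 64%. The other Fbln1 window and that of Tcf21 held none of these motifs, and that of Fmod a CCAAT box. A window was found for 28 of the 37 genes. These genes have 33 windows. The TATA box was in 5 of the 33 (15.2%), against 13.6% of 32544 windows in all, the CCAAT box in 12 (36.4%), against 37.4%, and the GC box in 15 (45.5%), against 35.9%. A match describes letters only, and says nothing about which factor binds.

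Among basement membrane collagens, 2 of 5 tested genes rose in wake hearts and 0 fell, against 7.79% and 10.7% of all genes. Col4a1, the alpha 1 chain of type IV collagen, had signals of 2681, 3363 and 2704 in wake MI hearts, against 1442, 1329 and 1352 in wake sham hearts. Sleep MI hearts read 2765, 2450.1 and 3370.1, against 1673, 2079 and 1568 in sleep sham hearts. All 6 MI hearts lay above all 6 sham hearts. The log2 change was 1.07 (SE 0.14, adjusted p = 0.000262, 2.10-fold) in wake hearts and 0.68 (SE 0.14, adjusted p = 0.0180, 1.61-fold) in sleep hearts. A dimmer probe set of Col4a1 moved the same way without passing the test, at 0.31 in wake and 0.41 in sleep hearts. The sleep call was lost when sleep MI replicate 1 or 3 or sleep sham replicate 1 or 3 was left out (adjusted p up to 0.0842), and with the mean of its probe sets.

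Col4a2, the partner chain, followed Col4a1. It had 1037, 1419 and 924 in wake MI hearts, against 804, 699.9 and 631 in wake sham hearts. The sleep MI signals were 1113, 1029 and 1311, against 899, 820.4 and 759 in sleep sham hearts. The 6 MI hearts again lay above the 6 sham hearts. Its log2 change was 0.63 (SE 0.15, adjusted p = 0.0114) in wake hearts, 0.47 (SE 0.15, adjusted p = 0.123) in sleep hearts and 0.55 (SE 0.11, adjusted p = 0.00281) over both times. Groups that do not overlap over both times were seen for 7.83% of all genes (2.97% higher, 4.85% lower), and among the 37 for Col4a1, Col4a2, Cdh11 and Fbln1. The other 3 basement membrane collagens, Col4a5, Col15a1 and Col18a1, were not called, with log2 changes of -0.30 to 0.22 in wake hearts and -0.00 to 0.48 in sleep hearts.

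Laminins, nidogens and other basement membrane genes gave 1 higher and 1 lower of 14 tested in wake hearts, against 7.79% and 10.7% of all genes. Tinagl1, a matricellular protein of basement membranes, rose by a log2 change of 1.66 in wake hearts (SE 0.18, adjusted p = 8.53e-05) and by 0.82 in sleep hearts (SE 0.18, adjusted p = 0.0252). Its signals averaged 699.6 ± 122 in wake MI hearts against 211 ± 37.8 in wake sham hearts, and 599 ± 72.9 in sleep MI hearts against 336 ± 73.5 in sleep sham hearts (SD, n = 3 each). Smoc1, a calcium-binding basement membrane protein, fell by 0.65 on the log2 scale in wake hearts (SE 0.19, adjusted p = 0.0296). Without wake sham replicate 3 the list gave 1 higher, Tinagl1, and 0 lower. Endothelial markers went both ways and gave 4 higher and 3 lower of 18 in wake hearts, and 0 higher and 1 lower in sleep hearts, with summed signals of 13425 to 15448 in wake MI against 13139 to 13791 in wake sham hearts.

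**Figure D2:**
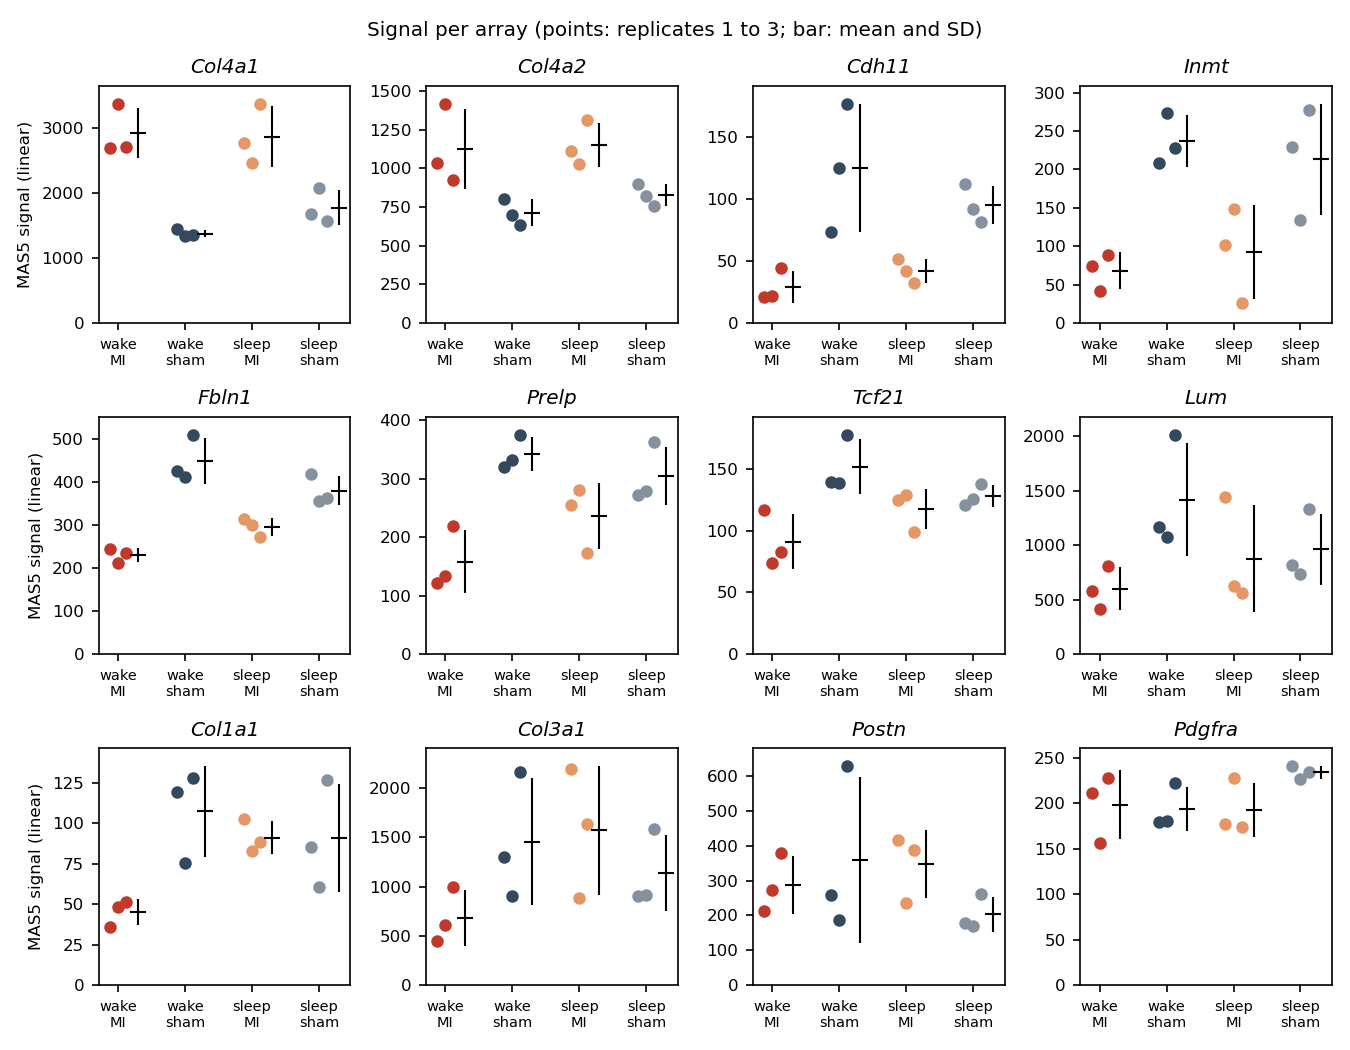
MAS5 signal (linear, y axis from 0) of 12 genes in each of the 12 hearts, with wake MI, wake sham, sleep MI and sleep sham from left to right. Points are single hearts and the bar beside them is the mean with its SD (n = 3): Col4a1 and Col4a2 are above sham in all MI hearts, and Cdh11 and Fbln1 are below sham in all of them.

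Among fibrillar collagens, the fibres of the scar to come, 2 of 6 tested genes fell in wake hearts and 0 rose. Over all genes 10.7% fell and 7.79% rose. All 6 had a log2 change below 0 in wake hearts and above 0 in sleep hearts. The sleep values ran from only 0.05 to 0.42, and 0 of the 6 were called there. Of all genes 57.6% lay below 0 in wake hearts and 60.3% in sleep hearts. Col1a1, the main chain of type I collagen, had 36.0, 48.0 and 51.2 in wake MI hearts, against 119, 75.3 and 128 in wake sham hearts. In sleep MI hearts it had 102, 82.8 and 88.3, against 85.6, 60.6 and 127 in sleep sham hearts. The wake MI hearts were below the 9 others, and the sleep groups overlapped. The log2 change was -0.997 (SE 0.21, adjusted p = 0.00680) in wake hearts and 0.05 (SE 0.21, adjusted p = 0.944) in sleep hearts. Over both times it was -0.48 (SE 0.15, adjusted p = 0.0376), a call lost for 8 of the 12 arrays when left out singly. A second Col1a1 probe set fell too in wake hearts, by 0.83 on the log2 scale, and was not called over both times, at -0.14.

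Col5a3, a chain of the type V collagen that starts fibrils, had 28.9, 33.4 and 36.2 in wake MI hearts, against 50.8, 55.9 and 50.4 in wake sham hearts. Sleep MI hearts read 66.4, 51.2 and 58.2, against 41.1, 44.0 and 61.4 in sleep sham hearts. Wake MI hearts were again lowest of the 12. It fell by 0.49 on the log2 scale in wake hearts (SE 0.14, adjusted p = 0.0283), a call lost when any of 5 of the 6 wake arrays was left out (adjusted p up to 0.0788). Its sleep value was 0.21 (SE 0.14, adjusted p = 0.483).

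Col3a1, the chain of type III collagen, varied widely within groups. It had 447, 608 and 1000.4 in wake MI hearts, against 1301, 904 and 2168 in wake sham hearts, and 2195, 882 and 1635 in sleep MI hearts, against 908, 915 and 1581 in sleep sham hearts. The wake groups overlapped through wake MI replicate 3 and wake sham replicate 2. MI over sham gave a log2 change of -1.06 (SE 0.37, adjusted p = 0.0607) in wake hearts and 0.42 (SE 0.37, adjusted p = 0.612) in sleep hearts. Col1a2, the second chain of type I collagen, had 577, 591 and 909 in wake MI hearts, against 1081, 752 and 1605 in wake sham hearts (log2 change -0.68, SE 0.26, adjusted p = 0.0806). Its signals were 1125, 765 and 847 in sleep MI hearts, against 766, 689 and 1109 in sleep sham hearts, which overlap (0.10, SE 0.26).

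The other type V chains, Col5a1 and Col5a2, overlapped between MI and sham hearts in the wake period. Col5a1 had 144, 136 and 257 in wake MI hearts, against 209, 159.7 and 248 in wake sham hearts, and 303, 185 and 205 in sleep MI hearts, against 148, 149 and 256 in sleep sham hearts. Its log2 change was -0.22 (SE 0.26) in wake and 0.32 (SE 0.26) in sleep hearts, neither called. Col5a2 had 187, 228 and 280.3 in wake MI hearts, against 287, 244 and 402 in wake sham hearts, and 314, 258 and 349.8 in sleep MI hearts, against 244, 235 and 264 in sleep sham hearts. It gave -0.39 (SE 0.18, adjusted p = 0.141) in wake and 0.28 (SE 0.18, adjusted p = 0.446) in sleep hearts.

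No collagen of beaded filaments, networks, FACIT or transmembrane type was called at either time. Type VI collagen, which forms beaded filaments around cells, gave log2 changes of 0.04, -0.22 and -0.46 for Col6a1, Col6a2 and Col6a3 in wake hearts, and of 0.29, 0.34 and 0.29 in sleep hearts. Col6a1 had 268, 288 and 423 in wake MI hearts, against 311, 238 and 406 in wake sham hearts, and 547, 355 and 381 in sleep MI hearts, against 348, 289 and 395 in sleep sham hearts. Col6a2 had 209, 251 and 435 in wake MI hearts, against 331, 244 and 457 in wake sham hearts, and 576, 301 and 358 in sleep MI hearts, against 323, 239 and 385 in sleep sham hearts. Both were highest in sleep MI replicate 1, and their groups overlapped. Col6a3 had 111, 139 and 226 in wake MI hearts, against 219.6, 170.0 and 266 in wake sham hearts. The groups overlapped there and in sleep hearts, where it had 321, 153 and 247 in MI, against 173, 154 and 240.2 in sham hearts. Col8a1, Col14a1, Col16a1 and Col20a1 lay between -0.56 and 0.17 in wake hearts and between -0.15 and 0.22 in sleep hearts. Of all 18 collagens, 4 were called in wake hearts (22.2%, against 18.5% of all genes) and 1 in sleep hearts (5.56%, against 2.65%). A log2 change below 0 was found for 12 of the 18 in wake hearts, against 57.6% of all genes, and for 2 of the 18 in sleep hearts, against 60.3%.

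Among small leucine-rich proteoglycans 3 of 7 tested genes fell in wake hearts (Fmod, Lum and Prelp) and 0 rose, against 10.7% and 7.79% of all genes. In sleep hearts 0 of 7 passed, against 2.65% of all genes. All 7 had a log2 change below 0 at both times, from -0.07 for Ogn to -1.35 for Fmod in wake hearts. Of all genes 57.6% lay below 0 in wake hearts and 60.3% in sleep hearts. Prelp, which links collagen to basement membranes, had 121, 133 and 219.8 in wake MI hearts, against 321, 333 and 376 in wake sham hearts. The sleep MI signals were 255, 280.3 and 173, against 273, 279.7 and 362 in sleep sham hearts. The wake groups did not overlap, and the sleep groups did. The log2 change was -1.08 (SE 0.20, adjusted p = 0.00324) in wake hearts, -0.36 (SE 0.20, adjusted p = 0.386) in sleep hearts and -0.72 (SE 0.14, adjusted p = 0.00323) over both times, and a second probe set fell as well.

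Lumican, which keeps collagen fibrils at even spacing, had Lum signals of 574, 417 and 813 in wake MI hearts, against 1165, 1072 and 2015 in wake sham hearts. In sleep MI hearts they were 1438, 625 and 561, against 817, 736 and 1336 in sleep sham hearts. Wake MI lay below wake sham in each heart and the sleep groups overlapped. MI over sham gave a log2 change of -1.21 (SE 0.35, adjusted p = 0.0279) in wake hearts and -0.22 (SE 0.35, adjusted p = 0.801) in sleep hearts. Over both times it was -0.71 (SE 0.25, adjusted p = 0.0512) and missed the threshold. The wake call was lost on leaving out any of 4 wake arrays (MI replicates 1 and 2, sham replicates 1 and 3), with an adjusted p of up to 0.120.

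Fibromodulin, a collagen fibril regulator abundant in tendon and valve, was dim. Fmod had 7.79, 7.84 and 3.20 in wake MI hearts, against 23.2, 31.3 and 81.7 in wake sham hearts. In sleep MI hearts it had 26.5, 20.2 and 19.5, against 56.8, 17.3 and 60.3 in sleep sham hearts. The wake MI values lie below the added 16, so that constant sets the size of the log2 change of -1.35 (SE 0.33, adjusted p = 0.0128). A second Fmod probe set gave -0.55 in wake hearts and did not pass.

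Decorin and asporin were called over both times and at neither time alone. Dcn, the proteoglycan that binds type I collagen and growth factors, had 4911, 3568 and 3984 in wake MI hearts, against 4908, 4944 and 5683 in wake sham hearts. Sleep MI hearts read 4713, 5453 and 4100.2, against 5858, 4867 and 6219 in sleep sham hearts. Its log2 change over both times was small, -0.29 (SE 0.10, adjusted p = 0.0470). Aspn, a proteoglycan that binds collagen, had 84.8, 61.2 and 78.1 in wake MI hearts, against 119, 86.8 and 174 in wake sham hearts, and 106, 84.5 and 65.3 in sleep MI hearts, against 99.2, 88.5 and 134 in sleep sham hearts. Over both times it fell by 0.45 on the log2 scale (SE 0.15, adjusted p = 0.0479), with a second probe set at -0.07. The Dcn call was lost for 9 of the 12 arrays when left out singly, and the Aspn call for 8 of them.

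Bgn, biglycan, a close relative of decorin, had 692, 533 and 1079.8 in wake MI hearts, against 1070.0, 813 and 1602 in wake sham hearts, and 721, 617 and 844 in sleep MI hearts, against 706, 622 and 1139 in sleep sham hearts. Its groups overlapped and it was not called, at -0.59 (SE 0.28, adjusted p = 0.154) in wake and -0.14 (SE 0.28) in sleep hearts. Ogn depended on the probe set: its brightest one gave -0.07 in wake hearts and was not called, and the other gave -0.76 and was called lower (adjusted p = 0.0159 over all probe sets).

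Of the fibulins and elastin, Fbln1 fell in wake hearts and the other 3 were not called. Fbln1, a fibulin of elastic fibres and basement membranes, had 245, 211 and 234 in wake MI hearts, against 426, 410.4 and 510.1 in wake sham hearts. The sleep MI signals were 313, 299 and 272, against 418, 356 and 363 in sleep sham hearts. All 6 MI hearts were below all 6 sham hearts, and the wake MI hearts were below the sleep MI hearts too. The log2 change was -0.91 (SE 0.11, adjusted p = 0.000231) in wake hearts, -0.34 (SE 0.11, adjusted p = 0.129) in sleep hearts and -0.63 (SE 0.08, adjusted p = 0.000164) over both times. It was called in wake hearts and over both times under every alternative and with any 1 array left out. Fbln5, which guides elastic fibre assembly, gave -0.46 in wake hearts (SE 0.18, adjusted p = 0.0834) with groups that did not overlap, as 21.5% of all genes did in that direction. Fbln2, another fibulin of elastic fibres, had signals of 191 to 295 in wake MI against 208 to 349 in wake sham hearts and 199 to 246 in sleep MI against 183 to 246 in sleep sham hearts, with log2 changes of -0.19 (SE 0.19) and -0.01 (SE 0.19).

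Eln, elastin itself, was not called in any comparison. It had 109.6, 112 and 186 in wake MI hearts, against 144, 137 and 203 in wake sham hearts. In sleep MI hearts it had 143, 129 and 122, against 75.6, 90.4 and 104 in sleep sham hearts. Sleep MI lay above sleep sham in each heart, at 0.48 (SE 0.19, adjusted p = 0.208), and the wake groups overlapped, at -0.24 (SE 0.19, adjusted p = 0.398). Wake sham against sleep sham hearts gave 0.73 (SE 0.19, adjusted p = 0.0736).

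No matricellular, adhesive or cross-linking gene was called in wake or sleep hearts, though without wake sham replicate 3 Fn1 was called higher in sleep hearts. Fn1, fibronectin of the early wound matrix, had 254, 205 and 248 in sleep MI hearts, against 175, 146 and 123 in sleep sham hearts, which do not overlap, as for 8.2% of all genes in that direction (log2 change 0.63, SE 0.25, adjusted p = 0.222). In wake MI hearts it had 175, 200.4 and 189, against 193, 145 and 397 in wake sham hearts (-0.24, SE 0.25). Periostin, a marker of activated fibroblasts, had Postn signals of 417, 235 and 389.8 in sleep MI hearts, against 177, 170.4 and 262 in sleep sham hearts (0.71, SE 0.35, adjusted p = 0.317). Postn had 213, 273 and 379 in wake MI hearts, against 258, 188 and 631 in wake sham hearts, which overlap (-0.16, SE 0.35). Lox, the enzyme that cross-links collagen, had 142, 199.7 and 61.2 in wake MI hearts, against 75.5, 76.6 and 64.5 in wake sham hearts (0.65, SE 0.31, adjusted p = 0.166). In sleep MI hearts Lox had 90.2, 108 and 197, against 105, 119 and 76.4 in sleep sham hearts, and its groups overlapped at both times (0.29, SE 0.31 in sleep hearts). Sparc, a collagen-binding matricellular protein, had 1362, 1626 and 2062 in wake MI hearts, against 2062, 1619.9 and 2293 in wake sham hearts, and 2223, 1643 and 1805 in sleep MI hearts, against 1656, 1378 and 1645 in sleep sham hearts. It gave -0.25 (SE 0.16) in wake and 0.27 (SE 0.16) in sleep hearts.

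Fibroblast identity genes held the largest falls among the 37, yet not all members fell. Cdh11, the cadherin through which mesenchymal cells adhere, had 21.4, 21.5 and 44.0 in wake MI hearts, against 73.5, 125 and 177 in wake sham hearts. Sleep MI hearts read 51.8, 42.0 and 32.5, against 112, 92.1 and 81.8 in sleep sham hearts. The 6 MI hearts were below the 6 sham hearts. MI over sham gave a log2 change of -1.62 (SE 0.25, adjusted p = 0.00103) in wake hearts, -0.94 (SE 0.25, adjusted p = 0.0652) in sleep hearts and -1.28 (SE 0.18, adjusted p = 0.000325) over both times. It too was called in wake hearts and over both times under every alternative and with any 1 array left out.

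Inmt, a methyltransferase listed here as a fibroblast marker, had 74.9, 41.8 and 88.1 in wake MI hearts, against 208, 274 and 228 in wake sham hearts. The sleep MI signals were 102, 148 and 26.5, against 229, 135 and 277 in sleep sham hearts. The wake groups were apart and the sleep groups overlapped through sleep MI replicate 2. The log2 change was -1.62 (SE 0.39, adjusted p = 0.0124) in wake hearts and -1.24 (SE 0.39, adjusted p = 0.113) in sleep hearts, and -1.43 (SE 0.28, adjusted p = 0.00281) over both times. Without wake MI replicate 2 the wake call was lost (adjusted p = 0.0516).

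Tcf21, the transcription factor of the cardiac fibroblast lineage, fell in wake hearts by 0.66 on the log2 scale (SE 0.15, adjusted p = 0.0105). It had 117, 74.3 and 82.5 in wake MI hearts, against 139.6, 139 and 178 in wake sham hearts, and 125, 129 and 98.7 in sleep MI hearts, against 121, 126 and 138 in sleep sham hearts. Pdgfra, the growth factor receptor used to mark fibroblasts, had 211, 156 and 228 in wake MI hearts, against 179, 180.0 and 222 in wake sham hearts. Its wake groups overlapped and the log2 change was 0.02, with a 95% interval of -0.29 to 0.33 (adjusted p = 0.934). Sleep MI hearts had Pdgfra signals of 177, 227 and 174, against 241, 227 and 234 in sleep sham hearts (-0.27, SE 0.14, adjusted p = 0.363). Fibroblast genes outside the 37 were read from a list of 24 tested markers. In wake hearts 1 rose (Gfpt2, log2 change 0.97, adjusted p = 0.00934) and 5 fell, against 7.79% and 10.7% of all genes. In sleep hearts 0 passed, against 2.65% of all genes. The falls were led by Htra3, a secreted protease (-1.24, SE 0.29, adjusted p = 0.0113), and Abca8a, a lipid transporter (-1.13, SE 0.30, adjusted p = 0.0180). Htra3 averaged 351 ± 190.0 in wake MI hearts against 780.1 ± 32.1 in wake sham hearts (SD, n = 3 each). With wake sham replicate 3 left out, the list gave 1 higher (Gfpt2) and 1 lower (Htra3).

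**Figure D3:**
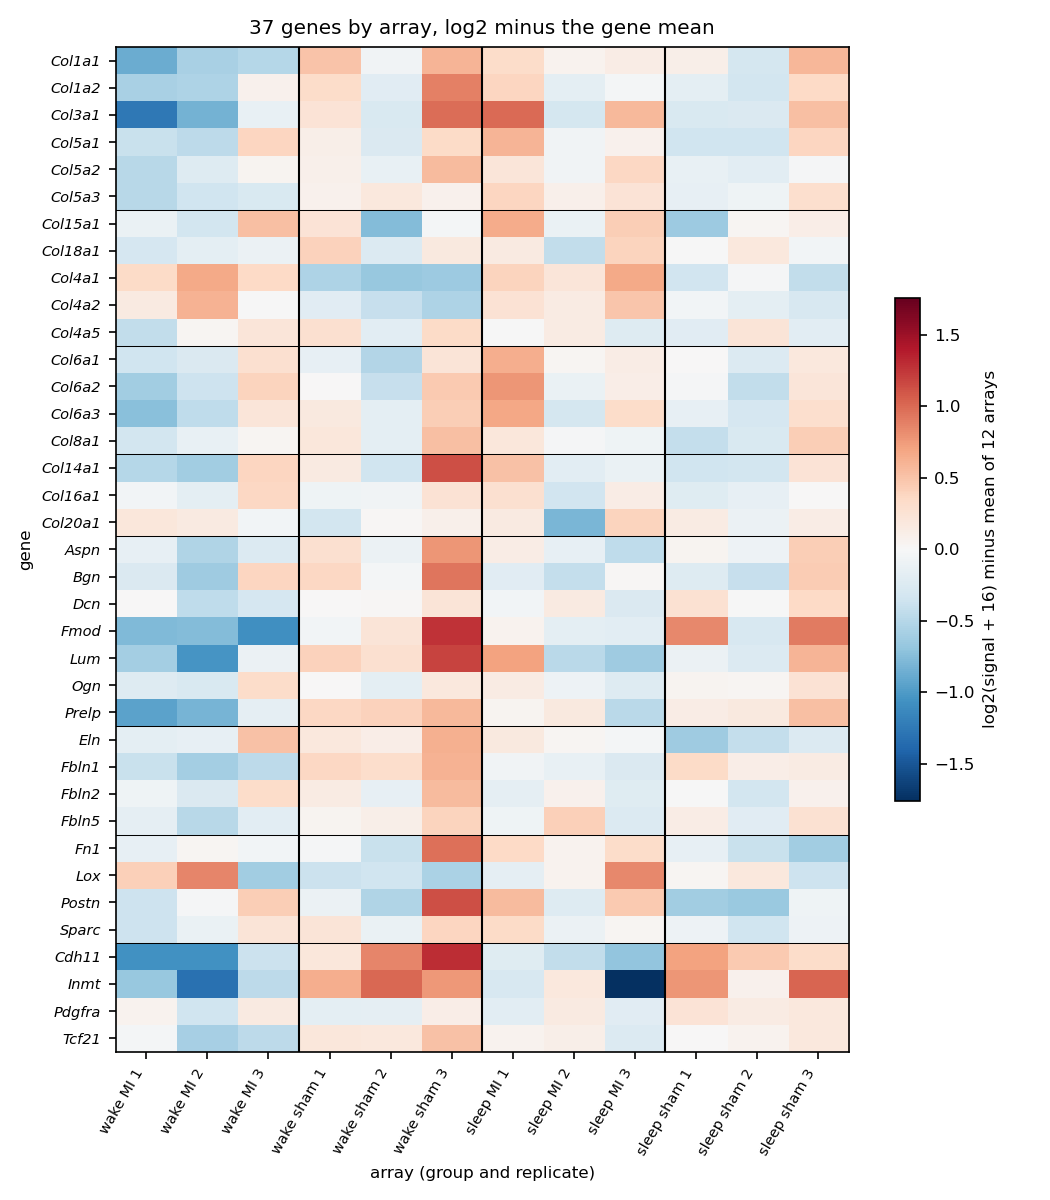
Each of the 37 tested genes (rows, grouped by role) in each of the 12 hearts (columns), as log2(signal + 16) minus the gene's mean over the 12 arrays, red above and blue below it. Wake MI replicates 1 and 2 are blue in most rows, and wake sham replicate 3 is red in most rows, with Col4a1, Col4a2 and Lox among those that are blue.

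Within a group, 1 array was often the highest for most of the 37 genes. Wake sham replicate 3 was the highest of its group for 30 of the 37 genes, sleep sham replicate 3 for 26, wake MI replicate 3 for 26 and sleep MI replicate 1 for 22. Over all 8101 genes those arrays were highest in 31.0%, 36.5%, 37.4% and 28.9%. The mean level of the 37 was 7.56, 7.56 and 7.90 on the log2 scale in wake MI hearts, against 8.01, 7.81 and 8.38 in wake sham hearts, and 8.13, 7.82 and 7.89 in sleep MI hearts, against 7.86, 7.76 and 8.09 in sleep sham hearts. Wake MI replicate 3 lay above wake sham replicate 2, so the groups overlapped. The 5 tested atrial markers had mean levels of 6.50, 6.34 and 6.49 in wake MI hearts, against 7.57, 8.40 and 11.22 in wake sham hearts, and of 8.92, 7.85 and 7.95 in sleep MI hearts, against 7.05, 6.76 and 8.61 in sleep sham hearts. The array highest in atrial markers was also highest for the 37 genes in 3 of the 4 groups. In the fourth, wake MI, the atrial markers were low on all 3 arrays and 3 of 5 fell against wake sham (2 of 5 without wake sham replicate 3). Their part in the matrix values was not tested.

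**Figure D4:**
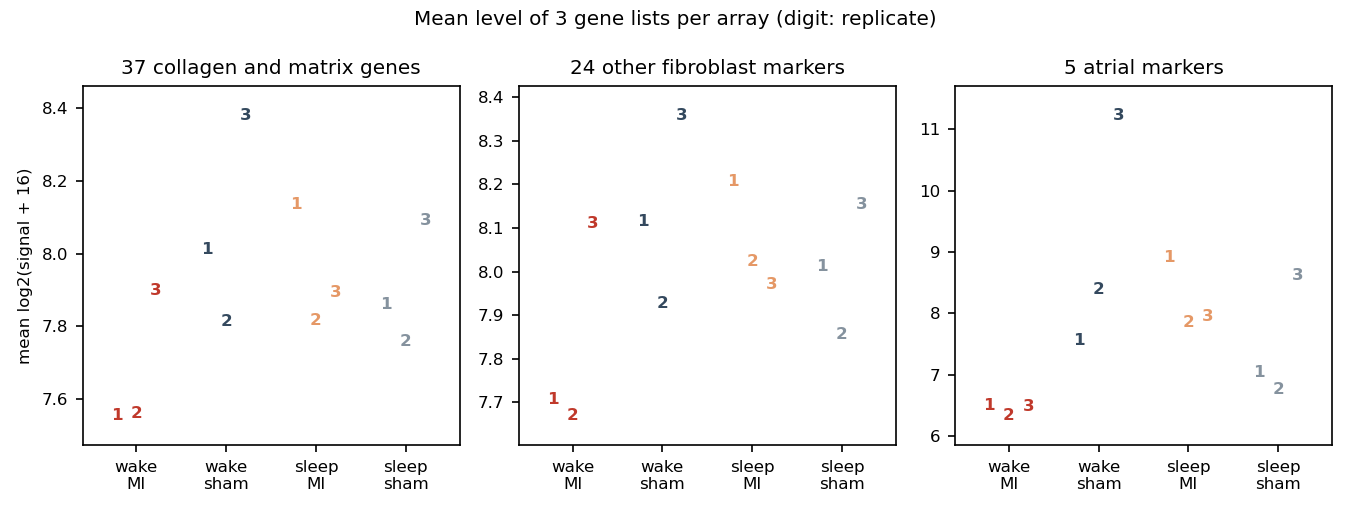
Mean log2(signal + 16) of the 37 collagen and matrix genes, of 24 other fibroblast markers and of 5 atrial markers in each heart (y axes differ between panels), with wake MI, wake sham, sleep MI and sleep sham from left to right and digits giving the replicate. Wake sham replicate 3 is highest in each panel, with 8.38 for the 37 genes.

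The wake and sleep comparisons asked whether the time of surgery and collection changed these genes. Among MI hearts 0 of 37 were called, wake against sleep (0.0741% of all genes were, 0.037% in each direction). At an unadjusted p below 0.05 there were 8, all lower in wake MI, against 6.67% of all genes (3.8% higher and 2.86% lower). Those 8 were Col1a1, Col3a1, Col5a2, Col5a3, Fbln1, Fmod, Prelp and Tcf21. Col1a1, Col5a3, Fbln1 and Fmod were lower in each wake MI heart than in all 9 other hearts, a pattern of 1.89% of all genes. Wake MI and sleep MI hearts did not overlap for 5 of the 37, those 4 and Fn1, all lower in wake MI, against 10.9% of all genes (6.47% higher, 4.41% lower). Col3a1 gave -1.16 (SE 0.37, adjusted p = 0.598) and Col1a1 -0.82 (SE 0.21, adjusted p = 0.490). The 5 tested atrial markers also lay lower in wake MI than in sleep MI hearts, with a median log2 change of -2.00 and 0 called. The part of atrial tissue in these wake and sleep values was not tested. Among sham hearts 0 of 37 were called (1.52% of all genes were, 0.42% higher and 1.1% lower). At an unadjusted p below 0.05 there were 3, with Eln and Fn1 higher and Col4a1 lower in wake sham hearts, against 13.4% of all genes (7.04% higher, 6.41% lower). Groups did not overlap for Eln and Tcf21, higher in wake sham hearts, and for Col4a1 and Pdgfra, lower, against 20.1% of all genes (11.9% higher, 8.15% lower).

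The difference of the MI effect, wake minus sleep, was tested directly. No gene of the 8101 was called, so percent called is 0, and 11 of the 37 had an unadjusted p below 0.05, all with the lower MI effect in wake hearts, against 10.5% of all genes (5.55% with the higher effect and 4.96% with the lower). The 11 were Col1a1, Col1a2, Col3a1, Col5a2, Col5a3, Eln, Fbln1, Fn1, Prelp, Sparc and Tcf21. The difference was -1.48 for Col3a1 (SE 0.52, adjusted p = 0.339), -1.04 for Col1a1 (SE 0.30, adjusted p = 0.256) and -0.57 for Fbln1 (SE 0.16, adjusted p = 0.237). Of the 37, 31 (83.8%) lay below 0, against 51.0% of all genes, with a median of -0.51, where the median of all genes was -0.01. Without wake sham replicate 3 the unadjusted count was 6, all lower, where 358 of all 8101 genes were higher and 289 lower. In that fit 30 of the 37 lay below 0, as did 4180 of the 8101. The value without that array was -1.15 for Col3a1 (adjusted p = 0.603) and -0.92 for Col1a1 (adjusted p = 0.478). Among type IV chains it was 0.39 for Col4a1 (SE 0.19, adjusted p = 0.493), 0.17 for Col4a2 (SE 0.21, adjusted p = 0.825) and -0.23 for Col4a5 (SE 0.26, adjusted p = 0.798), none called. For the 5 tested atrial markers the median difference was -4.19, with 5 below 0 and 0 called. Without wake sham replicate 3 it was -2.91, with 3 below 0. The part of atrial tissue in the differences of the 37 genes was not tested. These comparisons share groups, so their values are given side by side and not as separate support.

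The genes that make and receive collagen were read from lists. Of 19 tested genes of collagen synthesis and processing, 0 rose and 2 fell in wake hearts and 0 passed in sleep hearts. The 2 that fell are 10.5% of the list, near the 10.7% of all genes called lower in wake hearts. In sleep hearts 2.65% of all genes passed. Pcolce2, an enhancer of procollagen cleavage, fell by 0.83 on the log2 scale in wake hearts (SE 0.19, adjusted p = 0.00868), and averaged 158 ± 23.9 in wake MI against 298 ± 81.4 in wake sham hearts (SD, n = 3 each). Pdia3, a disulfide isomerase, fell by 0.47 (SE 0.11, adjusted p = 0.0135). The list gave 1 lower, Pcolce2, when wake sham replicate 3 was left out. The chaperone of collagen, Serpinh1, gave -0.42 (SE 0.16, adjusted p = 0.0812).

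Of 8 tested receptors of collagen and matrix, 3 rose and 0 fell in wake hearts, and 2 rose and 0 fell in sleep hearts. Over all genes 7.79% rose in wake hearts and 1.68% in sleep hearts. Sdc4, a heparan sulfate proteoglycan of focal adhesions, averaged 503 ± 15.8 in wake MI hearts against 138 ± 11.7 in wake sham hearts, and 554 ± 85.4 in sleep MI hearts against 261 ± 97.7 in sleep sham hearts (SD, n = 3 each). Its log2 change was 1.75 (SE 0.21, adjusted p = 0.000210) in wake and 1.10 (SE 0.21, adjusted p = 0.0155) in sleep hearts. Itga5, a chain of the fibronectin receptor, rose at both times, by 0.67 (SE 0.16, adjusted p = 0.0102) in wake and 1.02 (SE 0.16, adjusted p = 0.00382) in sleep hearts. Cd44, a hyaluronan receptor, rose in wake hearts by 0.74 (SE 0.23, adjusted p = 0.0364), a call lost without wake sham replicate 3, when 2 of the 8 rose.

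Of the 25 tested genes of fibroblast activation and the wound matrix, 8 rose and 3 fell in wake hearts. In sleep hearts 4 rose and 0 fell. Over all genes 7.79% rose and 10.7% fell in wake hearts, and 1.68% rose and 0.975% fell in sleep hearts. Ccn1, an early secreted matricellular protein, averaged 1466 ± 1048 in wake MI against 127 ± 20.1 in wake sham hearts, and 1326 ± 365 in sleep MI against 101 ± 32.3 in sleep sham hearts (SD, n = 3 each). Its log2 change was 3.16 (SE 0.36, adjusted p = 0.000132) in wake and 3.52 (SE 0.36, adjusted p = 0.000104) in sleep hearts. Ccn2, connective tissue growth factor, rose by 2.38 (SE 0.31) in wake and 1.76 (SE 0.31) in sleep hearts, and Thbs1, thrombospondin, by 2.68 (SE 0.45) and 2.03 (SE 0.45). Tgfb3, Thbs2 and Ccn5 fell in wake hearts, by 0.66, 0.84 and 0.61 on the log2 scale. Without wake sham replicate 3, 7 rose and 1, Tgfb3, fell in wake hearts, and 3 rose in sleep hearts.

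Markers of the other cell types in the tissue were read beside these genes. Over all genes 7.79% rose and 10.7% fell in wake hearts, and 1.68% rose and 0.975% fell in sleep hearts. Neutrophil markers gave 8 higher and 0 lower of 10 in wake hearts and 2 higher and 0 lower in sleep hearts, with summed signals of 1436 to 3425 in wake MI against 293 to 823 in wake sham hearts, and 1823 to 3363 in sleep MI against 544 to 2164 in sleep sham hearts. Macrophage markers gave 0 higher and 2 lower of 13 in wake hearts. Smooth muscle and pericyte markers gave 0 higher and 1 lower of 11 at each time, Kcnj8. Valve and tendon-like markers gave 1 higher (Prg4) and 1 lower of 4 in wake hearts, the lower one being Fmod, which is itself among the 37. Epicardial markers gave 1 higher of 4, Wt1. Without wake sham replicate 3 the wake counts were 7 higher for neutrophil, 4 higher and 1 lower for endothelial and 2 lower for macrophage markers, and 0 neutrophil markers passed in sleep hearts. The part of these cell types in the changes of the 37 genes was not tested.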

How the data were processed

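Gene expression was measured in 12 mouse hearts on 12 single-colour arrays. The deposited values are MAS5 intensities on a linear scale, one per probe set, per the submitters' processing notes; its version and settings are not stated in the labels, and no batch or scan date was used. Replicates are separate mice per the labels.

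From these intensities log2(signal + 16) was computed. Of 22690 probe sets, 64 were controls, 20380 had a single symbol, 691 several and 1555 none. Each of 12393 genes was represented by its brightest probe set, by mean over 12 arrays, and the 8101 genes above the 40th percentile of mean level over all non-control probe sets (a signal of about 16.8) were tested. limma 3.58.1 (R 4.3.3) was fitted with 4 group means over all 12 arrays and a variance trend, and p-values were adjusted by Benjamini-Hochberg over all 8101 genes, with calls at 0.05. Each comparison is of 3 against 3 mice, or 6 against 6 over both times. The fit was tested on simulated data. Alternatives covered the pseudocount, the filter, normalization, probe set choice, weights, covariates, thresholds and each array left out. Values per array are given for members called in any comparison and for a set list of main members, and the others by ranges; from each other list up to 3 called genes per direction with the smallest adjusted p are named, fewer where space asks, and Serpinh1 was added after its value was seen. The members and all lists were chosen with earlier results of these data known. Promoter sequences are RefSeq's, on GRCm38.p6.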

Additional observations from a re-analysis of the deposited data

How the results depend on the processing

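Counts of called genes among the 37 moved with the processing as follows. In wake hearts, against 11, there were 18 with array weights (3 higher, 15 lower), 3 with the beta-actin ratio as covariate, 5 at an adjusted p below 0.01, and 6 to 15 with 1 array left out. In sleep hearts, against 1, there were 0 with the mean of probe sets, 2 with array weights, 2 with only the compared groups fitted, 0 at 0.01, and 0 to 3 with 1 array left out. Over both times, against 11, there were 5 with the beta-actin ratio, 7 at 0.01, 7 with a log2 change of at least 0.5 also asked for, and 7 to 12 with 1 array left out. For wake sham against sleep sham hearts, against 0, there was 1 with array weights, 1 with the replicate block, and 0 to 1 with 1 array left out. Wake MI against sleep MI hearts gave 0, as did the wake minus sleep difference of effects, in all of these, and 0 to 0 with 1 array left out. The share of all genes called is given only for the fit without wake sham replicate 3, so these moves cannot be read as particular to the 37. Their cause was not tested. With the replicate number as a block the counts were 15 in wake hearts, 1 in sleep hearts and 12 over both times. Same-numbered samples correlated between -0.18 and 0.25 after the group means were removed (5 of 18 pairs over 0.1). Differently numbered samples were not correlated for comparison, so these values cannot decide whether the number marks a pairing. The labels state none. Of 23 called gene results, 8 held under all 16 settings and with each array left out: Cdh11, Col4a1 and Fbln1 in wake hearts and over both times, and Col4a2 and Prelp over both times. No called value changed sign, and 96 uncalled ones did. Groups of 3 mice, the dim signals of Fmod, the differing atrial markers and the unknown piece of sham heart limit these results.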
